A study of Sorghum bicolor with 14 samples.

Results

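The genes described here are those whose own transcript level peaked sharply in sorghum seed at 20 days after pollination (DAP). They were chosen from the deposited table of TPM values, a unit of transcript abundance that divides reads by gene length and brings every column to the same total. A gene was taken when it had at least 20 TPM at 20 DAP and when its log2(TPM + 1) there lay at least 2 above that of every other stage. IDs from Sobic.005G184400 to Sobic.005G193200 were left out, and none of the 85 IDs in that range met both thresholds. The rule found 38 of the 31337 genes in the table. Because the 20 DAP values chose the genes, every difference between 20 DAP and another stage is given below as a description.

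The study followed field-grown Sorghum bicolor of the cultivar M35-1 from the pistil at 1-2 days before pollination (DBP) through 0-2, 10, 20 and 30 DAP. There are 14 libraries by the labels, 2 of them from 30 DAP and 3 from each of the other stages. It is not said if they represent separate plants. The growth protocol of every library names M35-1, and no label names a treatment or a mutant. The 0-2 DAP libraries are labelled pistil as source and seed as tissue. The table holds 1 value per gene and stage, so no value below has a replicate error and no difference between stages could be tested. Depth per library is not known from TPM.

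A cereal grain is built from a triploid endosperm, an embryo and maternal layers of seed coat and fruit wall. During grain filling the endosperm stores starch and storage proteins, in sorghum the prolamins called kafirins. Later the embryo and the outer endosperm layer acquire desiccation tolerance while the starchy endosperm dies and the grain dries. A sample of whole seed therefore mixes tissues whose proportions change with age, and a lower TPM in such a sample cannot tell fewer cells of a type apart from less RNA per cell. The table gives IDs alone, and the RefSeq gene table for Sorghum_bicolor_NCBIv3 matched 0 of the 31337. The 38 genes are therefore described by ID, level, course and neighbourhood, without a role for any of them. The labelled tissue was not checked against marker genes.

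Genes with a sharp 20 DAP peak were few in the deposited values. Outside the range left out, 419 genes with at least 20 TPM had their highest value at 20 DAP. The 20 DAP value lay at least 1 above the highest other stage on the log2(TPM + 1) scale in 112 of them, at least 2 in the 38, at least 3 in 15 and at least 4 in 3. The same rule applied to the other columns as deposited found more genes in each case, 111 dominant in the unpollinated pistil, 129 at 0-2 DAP, 123 at 10 DAP and 291 at 30 DAP. With 1 value per stage these numbers could not be compared by a test. The rule for the other columns was not rerun under another scaling, so the ranking of stages is known for the deposited values alone. The 20 DAP number depends on the scaling. When the margin was taken after dividing the columns by median-ratio size factors, 61 genes met the rule, 35 of them among the 38. The minimum of 20 TPM stayed on the deposited values.

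**Figure D1:**
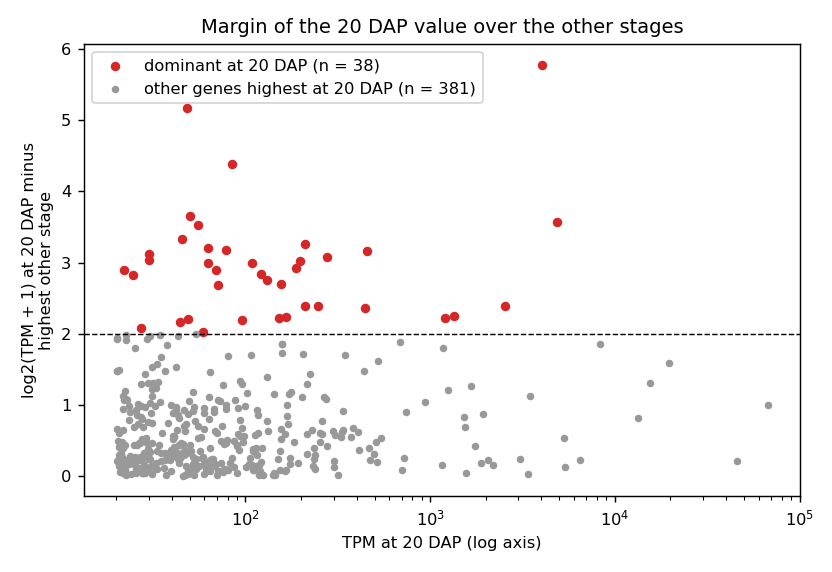
TPM at 20 DAP (log axis) against the margin of the 20 DAP value over the highest other stage on the log2(TPM + 1) scale, for the 38 genes dominant at 20 DAP (red) and 381 other genes highest at 20 DAP (grey). The points form a continuum across the dashed threshold of 2, and the 3 genes with margins above 4 stand apart at 4048, 84.8 and 48.3 TPM.

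The 38 genes held 1.81% of all TPM at 20 DAP. At the other stages their summed TPM was 0.00764% of the total at 1-2 DBP and 0.0133% at 0-2 DAP, with 0.201% at 10 DAP and 0.0226% at 30 DAP. Set against their 20 DAP sum, 11.1% was listed at 10 DAP and 1.25% at 30 DAP. For the genes dominant at 10 DAP, the next stage held 13.8% of the sum at their own stage, and for the genes dominant at 30 DAP the stage before held 11.0%. These sums describe the columns and were not tested. Single values at 20 DAP ran from 21.9 to 4887 TPM with a median of 102. The 5 genes above 1000 TPM held 77.5% of the sum, and the other 33 together held 0.407% of all TPM.

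The gene with the highest value, Sobic.009G009900, ranked 22nd of all genes at 20 DAP. It was listed at 0 TPM at 1-2 DBP, 0.0549 at 0-2 DAP, 409 at 10 DAP, 4887 at the 20 DAP peak and 3.07 at 30 DAP. Sobic.002G362400 had 0.0231 TPM at 1-2 DBP, 0.0826 at 0-2 DAP, 72.3 at 10 DAP, 4048 by 20 DAP and 0.981 at 30 DAP. Its margin of 5.79 on the log2 scale was the largest of the 38, and 98.2% of its summed TPM over the 5 stages fell at 20 DAP. Sobic.009G009800 had 0.0522 TPM at 1-2 DBP, 0.156 at 0-2 DAP, 485 at 10 DAP, 2550 at the 20 DAP peak and 1.86 at 30 DAP. Sobic.006G154300 had 0.760 TPM at 1-2 DBP, 1.68 at 0-2 DAP, 282 at 10 DAP, 1344 by 20 DAP and 5.83 at 30 DAP. Sobic.001G166401 had 18.1 TPM at 1-2 DBP, 9.34 at 0-2 DAP, 257 at 10 DAP, 1201 at the 20 DAP peak and 6.41 at 30 DAP, and was the only 1 of the 5 with more than 2 TPM in the pistil. In all 5 the second-highest value was at 10 DAP, and the 30 DAP value was below 7 TPM.

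**Figure D2:**
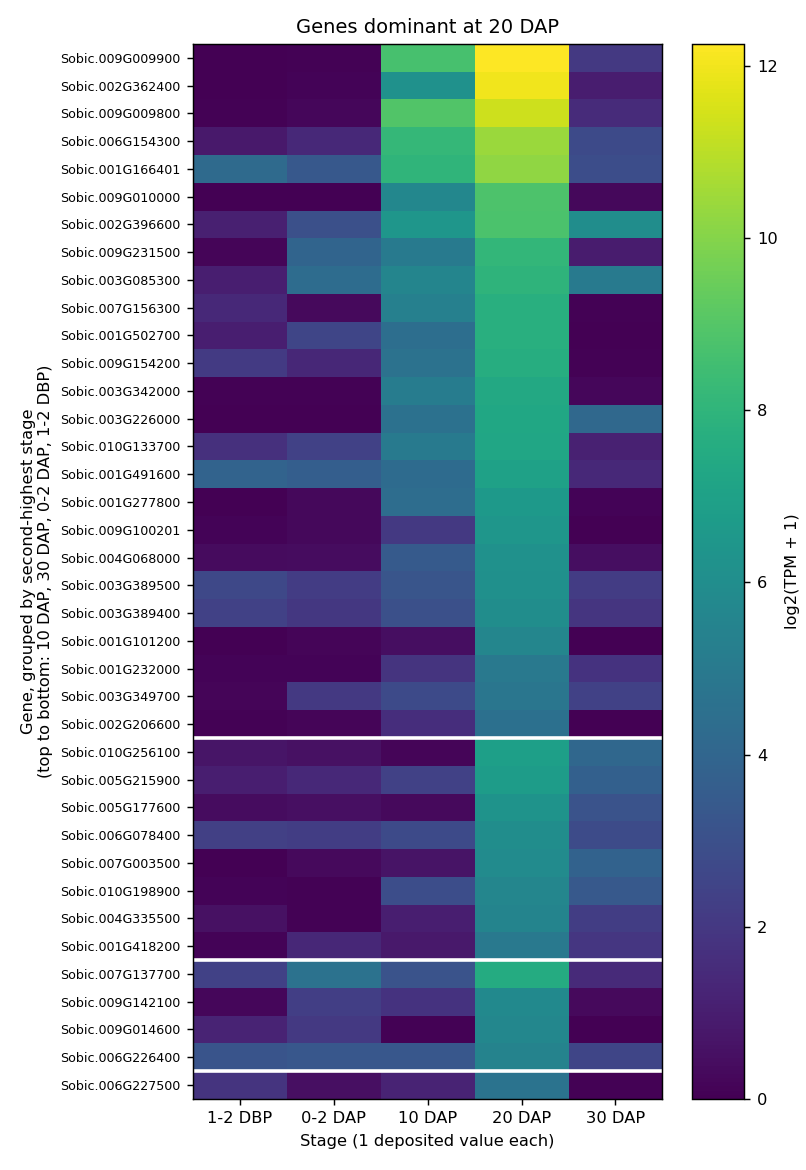
Deposited values of the 38 genes as log2(TPM + 1), 1 column per stage and 1 row per gene, grouped from top to bottom by the stage with the second-highest value (10 DAP for 25 genes, 30 DAP for 8, 0-2 DAP for 4 and 1-2 DBP for 1). The brightest cells lie at 20 DAP by construction, and the shading to the left and right of that column differs between the blocks.

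The order of the other 4 stages was not fixed by the rule, and the genes differed in it. The second-highest value was at 10 DAP in 25 genes, at 30 DAP in 8, at 0-2 DAP in 4 and at 1-2 DBP in 1. In 8 genes the second-highest value was within 1.5 times the third, 6 of them in the 10 DAP group. The place of these 8 rests on small differences between values of unknown error. All places are those of the deposited values, and the grouping was not rerun under another scaling. Dividing by the median-ratio size factors, 1.03 at 10 DAP and 0.41 at 30 DAP, raises 30 DAP values relative to 10 DAP values. The place of genes outside these 8 can therefore change with the scaling as well. The grouping by course that follows was made after the values were seen.

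The first course was already under way at 10 DAP. Of the 25 genes with 10 DAP second, 16 had at least 20 TPM there, including the 5 genes above 1000 TPM. Of these 16, 8 were below 1 TPM at 30 DAP. Among the 8, Sobic.009G010000 was listed at 0 TPM at 1-2 DBP and 0-2 DAP and had 50.05 at 10 DAP, 457 by 20 DAP and 0.199 at 30 DAP. Sobic.009G231500 had 0.142 TPM at 1-2 DBP, 14.4 at 0-2 DAP, 31.6 at 10 DAP, 275 at the 20 DAP peak and 0.888 at 30 DAP. Sobic.007G156300 had 1.70 TPM at 1-2 DBP, 0.256 at 0-2 DAP, 39.6 at 10 DAP, 211 by 20 DAP and 0.0603 at 30 DAP. The pistil-side levels of these genes differed, while the 30 DAP value below 1 TPM is what grouped them. Sobic.001G502700 had 1.05 TPM at 1-2 DBP, 4.87 at 0-2 DAP, 20.8 at 10 DAP, 209 at the 20 DAP peak and 0.0146 at 30 DAP, the lowest 30 DAP value above 0 among the 38. Sobic.009G154200 had 3.18 TPM at 1-2 DBP, 1.59 at 0-2 DAP, 23.2 at 10 DAP, 196 by 20 DAP and 0.0627 at 30 DAP. Sobic.003G342000 had 0.0346 TPM at 1-2 DBP, 0.0490 at 0-2 DAP, 34.4 at 10 DAP, 166 at the 20 DAP peak and 0.175 at 30 DAP. Unlike the pair before it, this gene was near 0 at both ends of the series. Sobic.001G277800 had the same form at a lower level, listed at 0 TPM at 1-2 DBP, with 0.184 at 0-2 DAP, 20.2 at 10 DAP, 95.8 by 20 DAP and 0.0925 at 30 DAP. The remaining member of the 8 is Sobic.002G362400, given above.

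In 3 of the 16 genes the value at 30 DAP stayed above 10 TPM. Sobic.002G396600 had 1.11 TPM at 1-2 DBP, 6.99 at 0-2 DAP, 85.0 at 10 DAP, 442 at the 20 DAP peak and 62.9 at 30 DAP, the highest 30 DAP value of the 38. Sobic.003G085300 had 1.04 TPM at 1-2 DBP, 19.1 at 0-2 DAP, 46.5 at 10 DAP, 247 by 20 DAP and 31.2 at 30 DAP. Sobic.003G226000 was listed at 0 TPM at 1-2 DBP and 0-2 DAP and had 23.0 at 10 DAP, 155 at the 20 DAP peak and 16.7 at 30 DAP. In each of the 3 the deposited values at 10 and 30 DAP were within 1.5 times of each other. These peaks thus had flanks of similar height as deposited, which scaling of the columns can change. Sobic.010G133700, with 2.25 TPM at 1-2 DBP, 4.22 at 0-2 DAP, 31.8 at 10 DAP, 152 by 20 DAP and 1.20 at 30 DAP, completes the 16 together with the 4 genes above 1000 TPM that kept more than 1 TPM at 30 DAP.

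The other 9 genes with 10 DAP second had between 0.367 and 18.5 TPM there. Sobic.001G101200 was nearly confined to 20 DAP, at 0 TPM at 1-2 DBP, 0.124 at 0-2 DAP, 0.367 at 10 DAP, 48.3 at the 20 DAP peak and 0 at 30 DAP, so that 99.0% of its summed TPM over the 5 stages fell at 20 DAP, the highest share of the 38. Sobic.009G100201 was close to it with 96.2%, from 0.0920 TPM at 1-2 DBP, 0.187 at 0-2 DAP, 3.11 at 10 DAP, 84.8 by 20 DAP and 0 at 30 DAP. Sobic.002G206600 had 0.0560 TPM at 1-2 DBP, 0.135 at 0-2 DAP, 2.07 at 10 DAP, 21.9 at the 20 DAP peak and 0 at 30 DAP. All 3 are listed at 0 at 30 DAP, where 21.5% of all genes in the table are listed at 0. Sobic.001G491600 had the highest pistil-side values of the 9, with 13.8 TPM at 1-2 DBP, 11.5 at 0-2 DAP, 18.5 at 10 DAP, 130 by 20 DAP and 1.65 at 30 DAP. Sobic.004G068000 had 0.262 TPM at 1-2 DBP, 0.325 at 0-2 DAP, 10.3 at 10 DAP, 71.3 at the 20 DAP peak and 0.376 at 30 DAP. Sobic.001G232000 had 0.0848 TPM at 1-2 DBP, 0.0872 at 0-2 DAP, 2.57 at 10 DAP, 30.1 by 20 DAP and 2.48 at 30 DAP. Its flanks were within 1.5 times of each other as deposited. Sobic.003G349700 had 0.132 TPM at 1-2 DBP, 3.13 at 0-2 DAP, 5.68 at 10 DAP, 27.2 at the 20 DAP peak and 4.11 at 30 DAP. The last 2 of the 9, Sobic.003G389400 and Sobic.003G389500, are neighbours and are described with the other runs of IDs.

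The second course reached into 30 DAP. In 8 genes the second-highest value was at 30 DAP, at 2.78 to 16.1 TPM. Sobic.010G256100 had 0.596 TPM at 1-2 DBP, 0.446 at 0-2 DAP, 0.111 at 10 DAP, 121 by 20 DAP and 16.1 at 30 DAP. Sobic.007G003500 had 0.0138 TPM at 1-2 DBP, 0.221 at 0-2 DAP, 0.572 at 10 DAP, 58.6 at the 20 DAP peak and 13.7 at 30 DAP. Sobic.005G177600 had 0.304 TPM at 1-2 DBP, 0.411 at 0-2 DAP, 0.258 at 10 DAP, 78.8 by 20 DAP and 7.80 at 30 DAP. These 3 genes were below 1 TPM at every stage up to 10 DAP and above 7 TPM at 30 DAP. Sobic.005G215900 had 1.04 TPM at 1-2 DBP, 1.68 at 0-2 DAP, 4.21 at 10 DAP, 109 at the 20 DAP peak and 12.7 at 30 DAP. Sobic.004G335500 had 0.471 TPM at 1-2 DBP, 0.0403 at 0-2 DAP, 1.04 at 10 DAP, 45.6 by 20 DAP and 3.61 at 30 DAP. Sobic.001G418200 had 0.0961 TPM at 1-2 DBP, 1.55 at 0-2 DAP, 0.797 at 10 DAP, 30.1 at the 20 DAP peak and 2.78 at 30 DAP. The 6 genes named so far in this group are those with a value at 30 DAP at least 2-fold above 10 DAP. The other 2 lay within 2-fold. Sobic.010G198900 had 0.0903 TPM at 1-2 DBP, 0.0664 at 0-2 DAP, 6.41 at 10 DAP, 48.8 by 20 DAP and 9.81 at 30 DAP. Sobic.006G078400 had a low value everywhere else, with 3.97 TPM at 1-2 DBP, 3.68 at 0-2 DAP, 5.74 at 10 DAP, 62.4 at the 20 DAP peak and 5.87 at 30 DAP.

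In the 5 remaining genes a pistil-side value came second. Sobic.007G137700 had 4.24 TPM at 1-2 DBP, 23.8 at 0-2 DAP, 7.73 at 10 DAP, 187 by 20 DAP and 1.80 at 30 DAP, and was the only gene of the 38 at or above 20 TPM in a pistil-side column. Sobic.009G142100 had 0.169 TPM at 1-2 DBP, 3.88 at 0-2 DAP, 2.53 at 10 DAP, 55.1 at the 20 DAP peak and 0.227 at 30 DAP. Sobic.009G014600 had 1.32 TPM at 1-2 DBP, 3.08 at 0-2 DAP, 0.0434 at 10 DAP, 50.2 by 20 DAP and 0 at 30 DAP. The first and the third of these had at 10 DAP a value at least 2-fold below 0-2 DAP, so their course had 2 maxima, a small one at 0-2 DAP and the large one at 20 DAP. Sobic.006G226400 had 8.22 TPM at 1-2 DBP, 9.11 at 0-2 DAP, 8.98 at 10 DAP, 44.1 at the 20 DAP peak and 4.82 at 30 DAP. It was the least specific of the 38, with 58.6% of its summed TPM at 20 DAP, and its 3 earlier values were nearly equal. Sobic.006G227500 had 2.60 TPM at 1-2 DBP, 0.410 at 0-2 DAP, 1.33 at 10 DAP, 24.5 by 20 DAP and 0.0410 at 30 DAP.

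Levels on the 2 sides of the peak were compared across the genes. Across the 38 genes, which are not replicates and share the same columns, Spearman's rho was 0.084 between the values at 30 and 10 DAP. It was 0.831 between 20 and 10 DAP and 0.118 between 30 and 20 DAP. Across the 4574 genes with at least 20 TPM at 20 DAP, the same 3 values were 0.182, 0.658 and 0.450. Low TPM and the columns' shared scaling enter all of these values. The rule caps the 10 and 30 DAP values of the 38 genes by their 20 DAP value, with no such cap on the 4574. The values of the 38 genes and of the 4574 are therefore not comparable, and nothing is read from their difference.

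**Figure D3:**
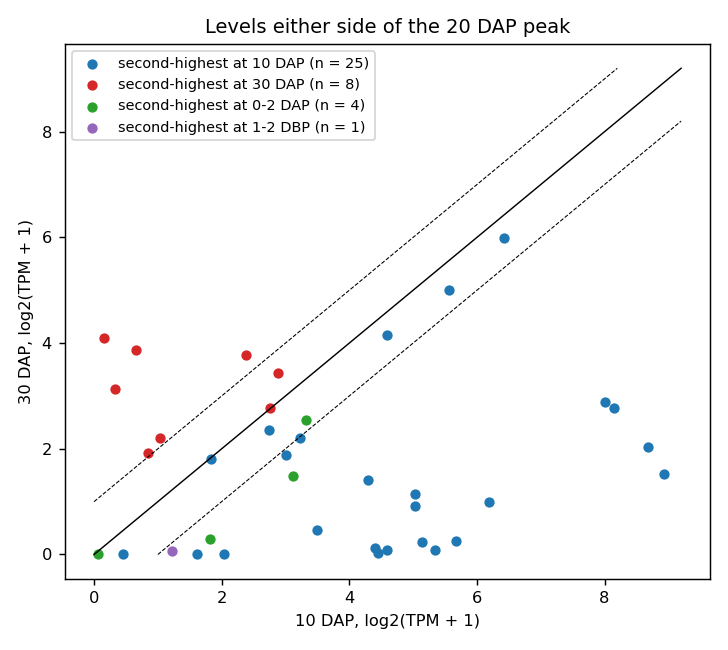
Level at 30 DAP against level at 10 DAP for the 38 genes, both as log2(TPM + 1), coloured by the stage with the second-highest value. The solid line marks equal values and the dashed lines 2-fold. Below the lower dashed line lie 22 genes and above the upper one 6, and several genes with high values at 10 DAP sit near 0 at 30 DAP.

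Stages other than 20 DAP were compared with each other, since the rule caps these values and leaves their order open. A gene was counted when log2(TPM + 1) differed by at least 1, which is 2-fold on that scale, and less than the true ratio where TPM is low. All 38 genes passed the filter of 1 TPM in at least 1 stage that set the background of 24404 genes. A second background, chosen after the data were seen, was the 4574 genes with at least 20 TPM at 20 DAP. The comparisons share columns, so their counts are given side by side without any measure of overlap.

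At 10 DAP against 0-2 DAP, 23 of the 38 genes (60.5%) were at least 2-fold higher, against 11.0% of all 24404 genes and 21.3% of the genes with at least 20 TPM at 20 DAP. Only 2 of the 38 (5.26%), Sobic.009G014600 and Sobic.007G137700, were at least 2-fold lower, against 39.7% and 21.1% of those backgrounds. A gene below 1 TPM at 0-2 DAP cannot be 2-fold lower on this scale. Such genes were 19 of the 38, against 10.7% and 6.06% of the backgrounds, so nothing is read from the low share. Neither background is matched to the 38 genes in level at 0-2 DAP, so the share higher is given as a description. The median log2 difference was 1.34 in the 38 genes and -0.72 in all genes. The largest differences were 8.72 in Sobic.009G009800, 8.60 in Sobic.009G009900, 6.72 in Sobic.006G154300 and 6.08 in Sobic.002G362400, 4 of the 5 most abundant genes. Dividing the columns by median-ratio size factors, which takes the median of all genes to -0.02, left 27 of the 38 genes higher against 19.8% of all genes. The labels of the 3 later stages lack the separate cultivar tag and the pistil source that those of the 2 earlier stages carry, and all labels name 2 library kits without tying either to a library. Whether preparation differed between these stages is not stated. Any part it had in the difference follows stage, so it cannot be told apart from stage and was not tested.

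At 30 DAP against 10 DAP, 22 of the 38 genes (57.9%) were at least 2-fold lower, against 48.1% of all genes and 50.6% of the genes with at least 20 TPM at 20 DAP. This share is near the background. The number at least 2-fold higher was 6 (15.8%), against 8.03% and 12.4%. The median log2 difference was -1.34 in the 38 genes and -0.94 in all genes. Because the whole column shifts, scaling matters here. After median-ratio scaling, 19 of the 38 genes were lower against 25.2% of all genes, and 9 were higher against 21.2%. The largest negative differences were -7.41 in Sobic.009G009800, -6.65 in Sobic.009G009900 and -5.41 in Sobic.009G010000, which are neighbours in ID order. The largest positive differences were 3.94 in Sobic.010G256100, 3.22 in Sobic.007G003500 and 2.81 in Sobic.005G177600.

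At 30 DAP against 0-2 DAP, a comparison added after the values were seen, 8 of the 38 genes (21.1%) were at least 2-fold lower, against 65.1% of all genes and 52.8% of the genes with at least 20 TPM at 20 DAP. Another 12 (31.6%) were at least 2-fold higher, against 7.99% and 15.7%. The 19 genes below 1 TPM at 0-2 DAP cannot be 2-fold lower on the log2(TPM + 1) scale, and the rule favours such genes, so nothing is read from the low share. Such genes were 10.7% and 6.06% of the backgrounds. The backgrounds are thus not matched in level at 0-2 DAP, and the share higher is given as a description. In 10 of the 38 genes both values were below 1 TPM, which leaves no 2-fold difference in either direction. After median-ratio scaling 4 of the 38 genes were lower, against 28.6% of all genes. The labels of 30 DAP and 0-2 DAP also differ as described for 10 DAP, so any part of preparation cannot be told apart from stage. The 8 lower genes were Sobic.001G491600, Sobic.001G502700, Sobic.007G137700, Sobic.009G014600, Sobic.009G142100, Sobic.009G154200, Sobic.009G231500 and Sobic.010G133700.

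Around pollination, at 0-2 DAP against 1-2 DBP, 8 of the 38 genes (21.1%) were at least 2-fold higher, against 8.82% of all genes and 7.76% of the genes with at least 20 TPM at 20 DAP. Another 2 (5.26%) were at least 2-fold lower, against 6.50% and 7.70%. The higher genes were Sobic.009G231500, with 14.4 TPM at 0-2 DAP against 0.142 at 1-2 DBP, Sobic.003G085300, Sobic.007G137700, Sobic.009G142100, Sobic.002G396600, Sobic.003G349700, Sobic.001G502700 and Sobic.001G418200. Apart from Sobic.003G085300, Sobic.009G231500 and Sobic.007G137700, none of these 8 exceeded 7 TPM at 0-2 DAP. The lower ones were Sobic.006G227500 and Sobic.007G156300. In 17 of the 38 genes both values were below 1 TPM. The 10 genes past 2-fold here are 26.3% of the 38, against 15.3% of all genes. With a pseudocount of 0.1 there were 16 (42.1%), against 22.7%, and with a pseudocount of 5 there were 3 (7.89%), against 7.68%, which is near the background.

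**Figure D4:**
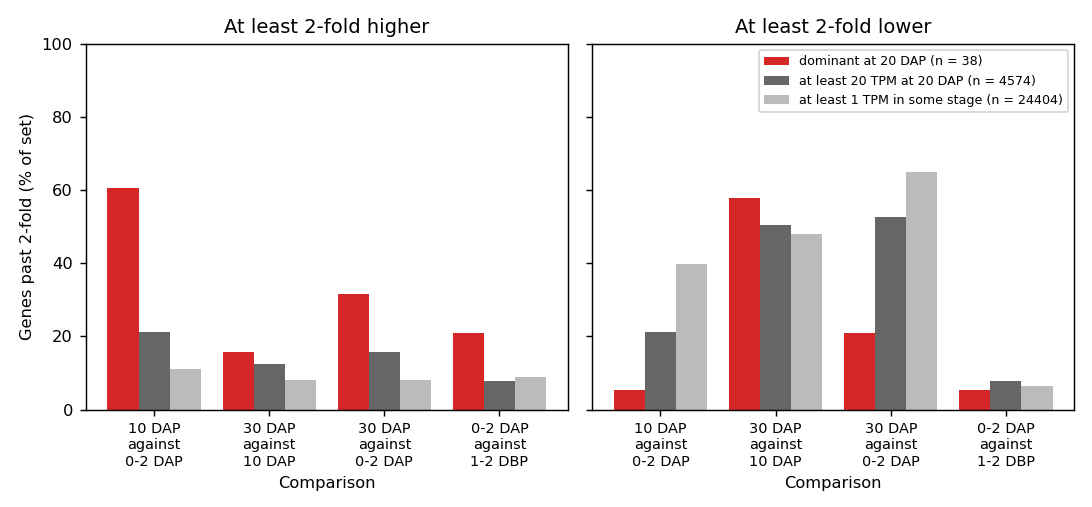
Share of genes at least 2-fold higher (left) or lower (right) in comparisons that leave 20 DAP out, for the 38 genes dominant at 20 DAP (red), genes with at least 20 TPM at 20 DAP (dark grey) and all 24404 genes that passed the filter (light grey). At 10 DAP against 0-2 DAP 60.5% of the 38 genes were higher, against 21.3% and 11.0%, while the shares lower at 30 DAP against 10 DAP were 57.9%, 50.6% and 48.1%. Neither background is matched to the 38 genes in level at 0-2 DAP.

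Low levels at the stages other than 20 DAP were also counted. At 1-2 DBP, 22 of them (57.9%) were below 1 TPM, against 8.02% of the genes with at least 20 TPM at 20 DAP and 13.2% of all 24404 genes. At 0-2 DAP the number was 19 of the 38, against 6.06% and 10.7%. At 10 DAP it was 6 (15.8%), against 0.940% and 15.0%, and at 30 DAP it was 15 (39.5%), against 7.24% and 35.0%. Since the rule asks every other stage to lie far below 20 DAP, it favours such low values at all 4 stages, and the shares are given as a description.

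Several of the genes were neighbours, since the IDs number genes along each chromosome. Sobic.009G009800, Sobic.009G009900 and Sobic.009G010000 follow each other in the table and together held 0.789% of all TPM at 20 DAP, which is 43.6% of the sum of the 38 genes. The gene that follows them, Sobic.009G010150, was listed at 0 TPM at 1-2 DBP and 0-2 DAP and had 459 TPM at 10 DAP, 944 at the 20 DAP peak and 0.508 at 30 DAP, a margin of 1.04 that kept it outside the rule. Beyond this run the pattern ended on both sides. Sobic.009G009700, just before it, had at most 0.0501 TPM in any column, and Sobic.009G010300, just after it, had 42.9 TPM at 1-2 DBP, 26.0 at 0-2 DAP, 10.5 at 10 DAP, 10.7 by 20 DAP and 14.0 at 30 DAP. The members of the run did not keep a fixed ratio, as Sobic.009G009900 had 1.92 times the TPM of Sobic.009G009800 at 20 DAP and 0.843 times at 10 DAP.

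**Figure D5:**
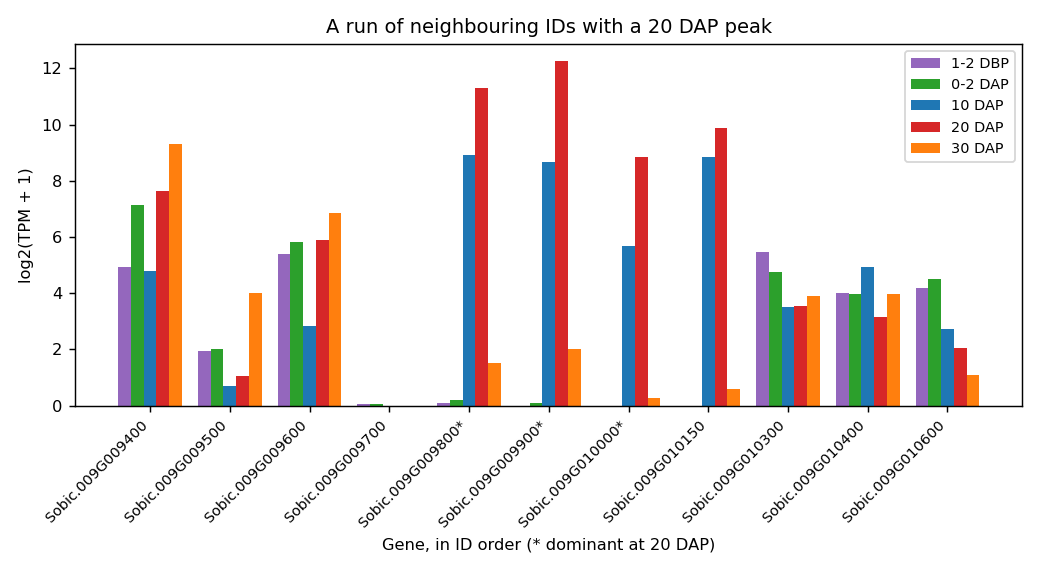
Level of 11 genes in ID order, from Sobic.009G009400 to Sobic.009G010600, as log2(TPM + 1), with 1 bar per stage and the 3 genes dominant at 20 DAP starred. The starred genes and Sobic.009G010150 show bars at 10 and 20 DAP with little or nothing before, and their flanking genes do not share this course.

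Sobic.003G389400 and Sobic.003G389500 were also side by side and had nearly the same course. Sobic.003G389400 had 4.11 TPM at 1-2 DBP, 2.99 at 0-2 DAP, 7.01 at 10 DAP, 62.7 at the 20 DAP peak and 2.69 at 30 DAP. Sobic.003G389500 had 5.21 TPM at 1-2 DBP, 3.46 at 0-2 DAP, 8.37 at 10 DAP, 69.0 by 20 DAP and 3.60 at 30 DAP. The ratio of Sobic.003G389500 to Sobic.003G389400 was between 1.10 and 1.34 in all 5 columns, in contrast to the run of Sobic.009G IDs. Whether neighbours with a shared course have sequences alike enough to divide reads between them was not tested, so their separate values are uncertain.

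Of the 70 other genes that stand directly beside one of the 38 in the table, 3 (4.29%) had at least 20 TPM and their highest value at 20 DAP, against 1.34% of all genes. These 3 are Sobic.009G010150 and the genes on both sides of Sobic.001G166401. Sobic.001G166300 had 14.1 TPM at 10 DAP, 28.5 at the 20 DAP peak and 0.646 at 30 DAP, and Sobic.001G166500 had 43.0 TPM at 10 DAP, 157 by 20 DAP and 0.200 at 30 DAP. Sobic.006G226400 and Sobic.006G227500 lie 13 places apart and had different courses. By ID prefix, Sobic.009G held 8 of the 38 genes (21.1%) against 7.82% of the table, and 3 of the 8 are the run above. Sobic.001G held 7 (18.4%, against 17.0%), Sobic.003G held 6 (15.8%, against 14.0%) and Sobic.006G held 4 (10.5%, against 8.72%), all near their share of the table. Below their share were Sobic.002G with 3 (7.89%, against 12.8%), Sobic.004G with 2 (5.26%, against 11.1%) and Sobic.008G, which held none against 5.74%. Sobic.005G held 2 (5.26%, against 6.60%), Sobic.007G held 3 (7.89%, against 6.83%) and Sobic.010G held 3 (7.89%, against 8.51%). Counts this small were not tested.

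The thresholds divide a continuum of values. The smallest margins inside were 2.02 in Sobic.007G003500 and 2.08 in Sobic.003G349700. Just outside lay Sobic.004G260500, with a margin of 1.99 and 53.8 TPM at 20 DAP, Sobic.003G101100, with 1.98 and 34.4 TPM, and Sobic.010G198100, with 1.97 and 22.6 TPM. The lowest 20 DAP levels inside were 21.9 TPM in Sobic.002G206600, 24.5 in Sobic.006G227500 and 27.2 in Sobic.003G349700. Below the minimum of 20 TPM with a sufficient margin lay Sobic.003G223700 at 19.5 TPM, Sobic.009G196400 at 18.6 TPM and Sobic.007G220700 at 16.6 TPM. Sobic.009G196400 had a margin of 4.05, larger than that of all but 3 of the 38 genes.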

How the data were processed

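The authors deposited 1 table, whose header line names its unit as TPM, with 1 column for each stage that sums to 1000000. The step from libraries to stage values is not stated. Per the labels' protocols, RNA was isolated by a modified Trizol procedure and libraries came from TruSeq stranded and NEBNext directional kits. The submitters' processing notes name HISAT2, DESeq2 and featureCounts 2.2.0 with no roles. Genome build and annotation: not given in the sources used here. Columns were matched to stages by name.

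The rule and all counts were computed on log2(TPM + 1) with Python 3.11.15, numpy 2.4.6 and pandas 2.3.3, and the code was tested on simulated data. The genes, lists and comparisons were chosen with earlier results of these data known. Tests per library (limma) could not be run on 1 value per stage. Gene lists, cell type markers and promoter motifs planned by description or sequence were not used, since no ID has an annotation or sequence here. With 38 genes, the rule for named genes allowed the values of each to be given. Alternatives were pseudocounts of 0.1 and 5, minimums of 10 and 50 TPM, filters, median-ratio and quantile scaling, rescaling without the 100 most abundant genes, and, chosen after seeing the data, margins of 1 and 3. Under each scaling the margins and fold differences were recomputed. The TPM minimum, the shares of all TPM and the grouping by second-highest stage stayed on the deposited values.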

Additional observations from a re-analysis of the deposited data

How the results depend on the processing

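The number of genes dominant at 20 DAP was 38 as deposited, against 61 with median-ratio scaling and 64 without the 100 most abundant genes, with shares of all TPM at 20 DAP of 3.06% and 3.01%. A margin of 1 gave 112 genes and 7.68%, and a margin of 3 gave 15 genes and 1.06%. Of the 38 genes, 35 were also found after median-ratio scaling and 35 after quantile scaling. Both scalings lost Sobic.003G349700, Sobic.007G003500 and Sobic.010G198900. A pseudocount of 5 lost 6 and a minimum of 50 TPM lost 9, while all 38 were kept with a pseudocount of 0.1, a minimum of 10 TPM and without the 100 most abundant genes. The number higher at 30 than at 10 DAP was 3 (7.89%) with a pseudocount of 5, against 5.47% of all genes. The number different around pollination was 16 (42.1%) with a pseudocount of 0.1, against 22.7%, and 3 (7.89%) with 5, against 7.68%. The number lower at 30 than at 0-2 DAP was 13 with a pseudocount of 0.1, against 71.8% of all genes, 3 with 5, against 47.7%, and 4 after median-ratio and after quantile scaling, against 28.6% and 27.4%. The number higher at 10 than at 0-2 DAP ran from 17 to 28, while the share of all genes ran from 6.86% to 19.8%. The number lower at 30 than at 10 DAP ran from 15 to 23. Neither number moved by over 1.5 times under the alternatives run, but the shares of all genes did. Lower at 30 than at 10 DAP were 60.5% of the 38 genes against 58.3% of all genes with a pseudocount of 0.1. After quantile scaling these shares were 44.7% and 21.4%. Beyond what the pseudocount does by construction to low values, the cause was not tested. No paired analysis was possible because libraries have no columns of their own, and leaving out each replicate could not be run for the same reason. Depth is unknown, so values near 0 cannot be separated from sampling.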
